A study of Mus musculus with 6 samples.

Results

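The cell cycle genes described here are 35 genes of DNA replication and mitosis. They were listed by symbol and not by a threshold on their values, but with earlier results of these data known. They comprise 16 genes whose products prepare for S phase, when DNA is copied, or act in it, here called S phase members. The other 19 have products that act in G2 and mitosis (G2/M), when the copied chromosomes are condensed and separated. Of the 35, 33 were matched to a row among the 21225 genes measured, 15 of S phase and 18 of G2/M, and Pcna and Ccnb1 were not analysed here. Transcripts were measured in whole lungs of C57BL/6 mouse embryos at E18.5, shortly before birth, with 3 lungs of RbpjkCNULL mice, 3 control lungs and 1 Affymetrix Mouse Gene 1.0 ST array per lung. RbpjkCNULL embryos carry Shh cre/+ and Rbpjk Flox/Flox, so that Rbpj, the DNA-binding partner of all Notch receptors, is deleted where Shh drives Cre, which in the lung is the epithelium. The control lungs are labelled wildtype in one place and Shh cre/+ in another, so whether Cre was present in them is not settled by the labels. The mesenchyme, vessels and blood of RbpjkCNULL lungs keep Rbpj and were measured together with the epithelium, and in such bulk samples fewer cells of a type and less RNA per cell cannot be told apart. Nothing in the labels says more of the origin of the lungs (litters, days), so p-values measure the spread between these 3 and 3 lungs, and with so few arrays every value is of limited precision.

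A cell about to divide switches on its replication genes at the end of G1, mainly through E2F transcription factors, and its mitotic genes later, through the B-Myb and MuvB complex and FoxM1 at promoters with a cell cycle homology region (CHR) and CCAAT boxes. Replication transcripts therefore follow cells in S phase, and mitotic transcripts follow cells in G2 and mitosis. Late in gestation lung cells divide less as they differentiate, and the airway epithelium sorts into secretory Clara cells (CCs), ciliated cells and neuroendocrine cells, a choice in which Notch signaling takes part. Multiciliated cells, which no longer divide, use several relatives of cell cycle genes to multiply their centrioles.

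The promoters of both phases differ in the letters they hold, and a few are shown because they belong to the members with the largest changes of their phase among those with a window in the reference table. Windows run from 250 bases before to 50 bases after the start of transcription and come from RefSeq on GRCm38.p6. They were searched on both strands for E2F-like words (TTCCCGC or TTGGCGC, and the forms TTCGCGC or TTGCCGC), CHR-like words (TTTGAA or else TTCGAA) and the CCAAT box, spelled as its name says, and matches are in capitals. An E2F-like word read on the other strand as GCGCCAA can run into a CCAAT box.
Mcm3, chr1:20820263-20820562, minus strand: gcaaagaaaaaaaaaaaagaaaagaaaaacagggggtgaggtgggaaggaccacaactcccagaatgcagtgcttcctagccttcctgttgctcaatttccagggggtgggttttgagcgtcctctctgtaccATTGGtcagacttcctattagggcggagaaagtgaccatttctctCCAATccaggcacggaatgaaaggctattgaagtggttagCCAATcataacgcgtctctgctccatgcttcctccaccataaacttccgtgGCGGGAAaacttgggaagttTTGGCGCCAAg
Cdc6, chr11:98907901-98908200, plus strand: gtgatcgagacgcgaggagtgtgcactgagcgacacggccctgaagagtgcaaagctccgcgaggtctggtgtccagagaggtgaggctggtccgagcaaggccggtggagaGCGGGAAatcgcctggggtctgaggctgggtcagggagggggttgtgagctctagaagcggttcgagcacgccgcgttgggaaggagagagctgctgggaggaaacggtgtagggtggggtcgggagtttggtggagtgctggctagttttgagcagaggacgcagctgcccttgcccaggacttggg
Mki67, chr7:135716330-135716629, minus strand: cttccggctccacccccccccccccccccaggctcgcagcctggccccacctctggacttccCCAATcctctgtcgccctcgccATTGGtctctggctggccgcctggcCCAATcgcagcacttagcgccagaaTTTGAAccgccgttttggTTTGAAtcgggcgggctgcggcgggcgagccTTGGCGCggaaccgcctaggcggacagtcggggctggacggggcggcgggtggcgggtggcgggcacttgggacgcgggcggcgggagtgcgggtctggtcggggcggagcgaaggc
Birc5, chr11:117848987-117849286, plus strand: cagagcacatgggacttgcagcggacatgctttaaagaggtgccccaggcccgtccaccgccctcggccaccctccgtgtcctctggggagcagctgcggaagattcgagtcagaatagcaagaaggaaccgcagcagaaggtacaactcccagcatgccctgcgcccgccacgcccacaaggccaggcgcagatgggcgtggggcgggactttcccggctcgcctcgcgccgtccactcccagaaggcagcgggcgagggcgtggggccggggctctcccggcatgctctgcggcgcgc
Ccnb2, chr9:70421505-70421804, minus strand: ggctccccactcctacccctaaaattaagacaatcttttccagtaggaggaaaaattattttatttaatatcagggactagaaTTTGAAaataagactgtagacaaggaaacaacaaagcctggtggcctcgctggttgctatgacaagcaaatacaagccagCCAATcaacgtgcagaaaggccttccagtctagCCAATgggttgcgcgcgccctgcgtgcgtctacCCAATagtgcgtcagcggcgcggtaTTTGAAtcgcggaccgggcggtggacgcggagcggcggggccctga
Mcm3 holds E2F-like words that start 20, 40 and 43 bases after the start of transcription, and CCAAT boxes at 117, 72 and 32 bases before it. Cdc6 holds a single E2F-like word, 138 bases before the start. Mki67 holds CHR-like words 116 and 98 bases before the start, with CCAAT boxes 188, 166 and 141 bases before it and an E2F-like word 67 bases before it. None of these words is in the window of Birc5. Ccnb2, which was added after its letters had been seen, has CCAAT boxes at 87, 54 and 21 bases before the start and CHR-like words 167 bases before and 5 bases after it.

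Across the phases the words were spread unevenly. Members with a window are counted once each, though Mcm7 has 2 windows, while the share over all is of windows. An E2F-like word was found for 8 of the 12 S phase members (66.7%) and 2 of the 14 G2/M members (14.3%), against 9.69% of all 27025 windows in the table. A CHR-like word was found for 2 of 12 S phase members (16.7%) and 11 of 14 G2/M members (78.6%), against 19.4% of all windows. The CCAAT box stood in 7 of 12 S phase members (58.3%) and 12 of 14 G2/M members (85.7%), against 37.9% of all windows. Both a CHR-like word and a CCAAT box were held by 16.7% of these S phase members, 78.6% of these G2/M members and 7.70% of all windows. These are matches of letters and were not set against binding data.

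All 33 measured members were lower on average in RbpjkCNULL lungs than in control lungs, by small amounts, and none passed the test over all genes. The median log2 change, RbpjkCNULL minus control, was -0.20 over the S phase members (1.15-fold lower) and -0.30 over the G2/M members (1.23-fold lower), against -0.05 over all 21225 genes. Single changes ranged from -0.29 to -0.09 in S phase and from -0.42 to -0.18 in G2/M. A change below 0 was found for 68.1% of all genes, and the members were read on the same 6 arrays, so their shared direction is not 33 separate observations. By limma, a linear model that pools the spread over genes, with Benjamini-Hochberg adjustment over all genes, 0 of 33 members were lower at an adjusted p under 0.05, where 0.113% of all genes were. Adjusted p values ran between 0.473 and 0.866 in S phase and between 0.555 and 0.813 in G2/M. At an unadjusted p under 0.05, limma found 5 of 33 members lower, namely Mcm3, Cdc6 and Gins2 of S phase and Aurkb and Birc5 of G2/M, against 4.97% of all genes, and 0 higher. The methods' t-test found 0 after adjustment and 1 of 33 before it, against 8.33% of all genes. In 6 members every RbpjkCNULL lung was below every control lung (Mcm3, Mcm6, Cdt1, Gins2, Aurkb and Birc5), against 9.28% of all genes. For 27 of the 33, the range over the 3 control lungs alone was wider than the size of the change between the groups, against 83.2% of all genes.

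**Figure D1:**
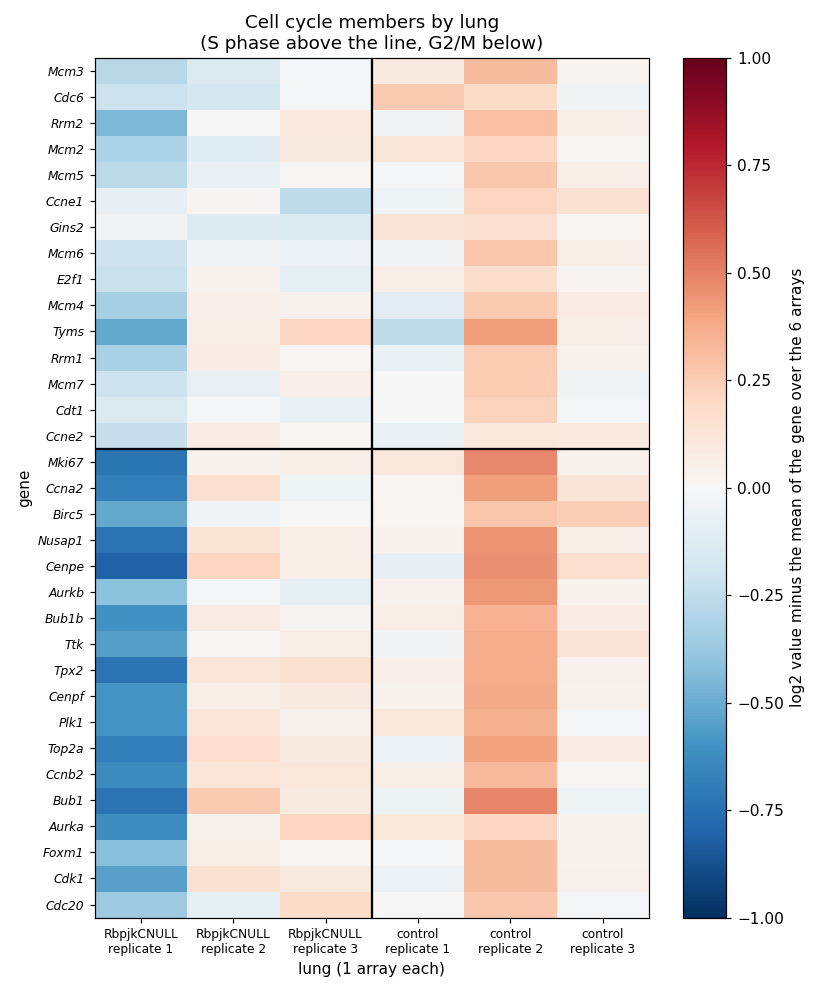
Each row is a measured member, S phase above the line and G2/M below it, and each column is a lung, RbpjkCNULL left of control. Colour is the log2 value minus the mean of that gene over the 6 arrays. RbpjkCNULL replicate 1 is the lowest lung for 31 of 33 members and control replicate 2 the highest for 32 of 33.

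In most members the same lungs stood at the ends of the range. RbpjkCNULL replicate 1 was the lowest of all 6 lungs for 13 of 15 S phase members and for 18 of 18 G2/M members, whereas it was the lowest lung for 19.4% of all genes. Gins2 and Ccne1 were lowest in RbpjkCNULL replicate 3. Control replicate 2 was the highest lung for 14 of 15 S phase members and 18 of 18 G2/M members, against 12.6% of all genes, and Cdc6 was highest in control replicate 1. Which lungs stand apart was seen in the data and is given as a description.

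The genes that place and drive the replicative helicase were measured for 9 members. Mcm3, a subunit of the MCM helicase that unwinds DNA at the fork, had log2 values of 7.51, 7.65 and 7.77 in RbpjkCNULL replicates 1, 2 and 3, against 7.88, 8.10 and 7.81 in control replicates 1, 2 and 3. The groups did not overlap, and the gap between the highest RbpjkCNULL lung and the lowest control lung was small beside the spread within each group. The change of Mcm3 was -0.29 (standard error 0.105, limma adjusted p = 0.473), the lowest of S phase. The other MCM subunits, Mcm2, Mcm4, Mcm5, Mcm6 and Mcm7, had changes between -0.22 and -0.15, with Mcm6 alone among them free of overlap, and between -0.15 and -0.03 without RbpjkCNULL replicate 1. Cdc6, which with Cdt1 loads the MCM ring onto origins, had values of 6.29, 6.33 and 6.49 in RbpjkCNULL lungs against 6.77, 6.69 and 6.47 in control lungs. Its groups overlapped only through RbpjkCNULL replicate 3 and control replicate 3, which lay side by side, and its change was -0.27 (standard error 0.10, limma adjusted p = 0.483). Cdt1 had values of 7.07, 7.20 and 7.15 in RbpjkCNULL lungs against 7.22, 7.45 and 7.20 in control lungs, with a change of -0.15. Its groups touched without overlapping, and control replicate 2 was the lung that stood apart. Gins2, a subunit of the GINS complex that travels with the helicase, had the narrowest spread of the members within both groups, with 6.76, 6.67 and 6.66 in RbpjkCNULL lungs against 6.92, 6.96 and 6.81 in control lungs, and a change of -0.20. Its change did not shrink without RbpjkCNULL replicate 1 (-0.23), and it was the 1 member at an unadjusted p under 0.05 in that fit.

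Enzymes that make deoxynucleotides kept little of their change without RbpjkCNULL replicate 1. Rrm2, the small subunit of ribonucleotide reductase, had 7.28, 7.74 and 7.83 in RbpjkCNULL lungs against 7.70, 8.03 and 7.80 in control lungs. Only RbpjkCNULL replicate 1 lay below the control range, and the change of -0.23 (limma adjusted p = 0.733) was -0.06 without that lung. Rrm1, the large subunit, had a change of -0.15 with all lungs and -0.03 without RbpjkCNULL replicate 1. Tyms, thymidylate synthase, spanned 0.67 over the 3 control lungs, more than any other member, and its change was -0.15 with all arrays and 0.07 without RbpjkCNULL replicate 1.

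The regulators of S phase entry were E2f1 and the E cyclins. E2f1, a transcription factor of the replication genes, had 6.67, 6.94 and 6.80 in RbpjkCNULL lungs against 6.97, 7.07 and 6.92 in control lungs, with a change of -0.18 (limma adjusted p = 0.652), or -0.12 without RbpjkCNULL replicate 1. The groups overlapped through RbpjkCNULL replicate 2 and control replicate 3. Ccne2, cyclin E2, had 5.76, 6.06 and 6.01 in RbpjkCNULL lungs against 5.92, 6.10 and 6.09 in control lungs, and its change of -0.09 (95% interval -0.33 to 0.14) was the smallest of the 33 and was close to 0 without RbpjkCNULL replicate 1. Ccne1, cyclin E1, had a change of -0.21, with overlap between the groups, and was lowest in RbpjkCNULL replicate 3.

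The G2/M members had a median change farther from 0 and a larger median standard error than S phase, with RbpjkCNULL replicate 1 lowest and control replicate 2 highest throughout. Mki67, the Ki-67 protein that coats mitotic chromosomes and marks dividing cells, had log2 values of 8.09, 8.86 and 8.88 in RbpjkCNULL lungs against 8.93, 9.31 and 8.87 in control lungs. RbpjkCNULL replicate 1 lay far below the other 5 lungs, and RbpjkCNULL replicate 3 reached the level of control replicate 3. The change of Mki67 was -0.42 (1.34-fold lower, 95% interval -0.94 to 0.10, limma adjusted p = 0.672), the lowest of all members with all arrays, and -0.16 without RbpjkCNULL replicate 1, where Cdc6, Gins2, Aurkb, Mcm3, Ccne1 and Birc5 had lower changes. Top2a, the topoisomerase that untangles sister chromosomes, had 8.31, 9.16 and 9.08 in RbpjkCNULL lungs against 8.93, 9.39 and 9.06 in control lungs. RbpjkCNULL replicates 2 and 3 both lay above control replicates 1 and 3, and the change of -0.28 (limma adjusted p = 0.772) was -0.01 without RbpjkCNULL replicate 1.

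The cyclins and the kinase that start mitosis, with their transcription factor, were again lowest in RbpjkCNULL replicate 1 and highest in control replicate 2. Ccna2, cyclin A2, had 7.85, 8.69 and 8.49 in RbpjkCNULL lungs against 8.56, 8.95 and 8.66 in control lungs, a change of -0.38 (standard error 0.215, limma adjusted p = 0.687) that was -0.13 without RbpjkCNULL replicate 1. The RbpjkCNULL lungs other than replicate 1 fell within the control range or just under it. Cdk1, the kinase that drives entry into mitosis, had 7.63, 8.32 and 8.26 in RbpjkCNULL lungs against 8.10, 8.48 and 8.21 in control lungs. Its change was -0.20 with all arrays (95% interval -0.64 to 0.25) and 0.02 without RbpjkCNULL replicate 1 (95% interval -0.27 to 0.32). Ccnb2, cyclin B2, whose promoter is printed above, had a change of -0.27 with all arrays and -0.01 without that lung. Foxm1, a transcription factor of mitotic genes, had 6.64, 7.11 and 7.08 in RbpjkCNULL lungs against 7.05, 7.38 and 7.09 in control lungs. Its RbpjkCNULL replicates 2 and 3 sat level with control replicates 1 and 3, and its change of -0.23 (limma adjusted p = 0.719) was -0.08 without RbpjkCNULL replicate 1.

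Further members are mitotic kinases and parts of the chromosomal passenger complex, which corrects the attachment of chromosomes to the spindle. Groups did not overlap for 2 of the 18 G2/M members, Birc5 and Aurkb, against 9.28% of all genes lower without overlap. Birc5 (survivin), a passenger protein, had 6.22, 6.71 and 6.73 in RbpjkCNULL lungs against 6.75, 7.02 and 6.98 in control lungs. The groups were parted by a narrow gap, and the change was -0.36 (standard error 0.149, limma adjusted p = 0.555). Aurkb, the kinase of the same complex, had 7.56, 7.95 and 7.87 in RbpjkCNULL lungs against 8.01, 8.40 and 8.0 in control lungs, a change of -0.35 (limma adjusted p = 0.567). Without RbpjkCNULL replicate 1 the changes of Birc5 and Aurkb were -0.20 and -0.23, the lowest 2 of G2/M in that fit. Aurka and Plk1, kinases of the spindle poles, had changes of -0.24 and -0.29, which were 0.01 and -0.06 without RbpjkCNULL replicate 1.

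Spindle and kinetochore genes held the largest gaps between RbpjkCNULL replicate 1 and the other RbpjkCNULL lungs. Cenpe, a kinetochore motor, was lower there by the widest margin of all members, with 6.21 in RbpjkCNULL replicate 1 and 7.22 and 7.07 in RbpjkCNULL replicates 2 and 3, against 6.93, 7.46 and 7.17 in control lungs. Its change of -0.35 (95% interval -0.97 to 0.26) was -0.04 without that lung. Nusap1, Tpx2 and Cenpf, proteins of spindle microtubules and kinetochores, had changes of -0.36, -0.31 and -0.30, and the checkpoint kinases Bub1b, Ttk and Bub1 had changes of -0.33, -0.31 and -0.26. Without RbpjkCNULL replicate 1 those changes were -0.08, -0.02 and -0.08 for Nusap1, Tpx2 and Cenpf, and -0.11, -0.12 and 0.05 for Bub1b, Ttk and Bub1. Cdc20, which activates the ubiquitin ligase that ends metaphase, had 6.96, 7.23 and 7.51 in RbpjkCNULL lungs against 7.33, 7.59 and 7.31 in control lungs. It had the smallest change of G2/M (-0.18, limma adjusted p = 0.770, and -0.04 without RbpjkCNULL replicate 1), and its RbpjkCNULL lungs spanned more than the control lungs.

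Set side by side, the phases differed in how far a single lung carried them. The median deviation of the S phase members from their gene means was -0.23, -0.02 and 0.02 in RbpjkCNULL replicates 1, 2 and 3, against -0.01, 0.26 and 0.04 in control replicates 1, 2 and 3. The median deviation of the G2/M members was -0.61, 0.10 and 0.06 in RbpjkCNULL lungs, against 0.03, 0.37 and 0.04 in control lungs. RbpjkCNULL replicate 1 was thus low in both phases and lower in G2/M, while RbpjkCNULL replicates 2 and 3 sat beside control replicates 1 and 3. Over lungs the S phase deviation averaged -0.08 ± 0.13 in RbpjkCNULL and 0.09 ± 0.14 in control (SD, n = 3 each), and the G2/M deviation -0.15 ± 0.40 in RbpjkCNULL and 0.15 ± 0.19 in control (SD, n = 3 each). The G2/M difference of -0.30 between groups was smaller than the SD of the RbpjkCNULL lungs and larger than that of the control lungs. The S phase difference of -0.17 was larger than the SD of either group. Without RbpjkCNULL replicate 1 the differences were -0.06 in G2/M and -0.09 in S phase. The S phase deviation minus the G2/M deviation was 0.38, -0.12 and -0.05 in RbpjkCNULL lungs against -0.04, -0.11 and -0.01 in control lungs, so only RbpjkCNULL replicate 1 had the phases parted by more than 0.12. Within RbpjkCNULL, replicate 1 minus the mean of the other lungs had a median of -0.20 over S phase members (range -0.66 to 0.09) and -0.71 over G2/M members (range -0.94 to -0.36), or 1.64-fold in G2/M. Within control, replicate 2 minus the mean of the other lungs had a median of 0.24 over S phase members (range 0.08 to 0.52) and 0.32 over G2/M members (range 0.14 to 0.54).

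**Figure D2:**
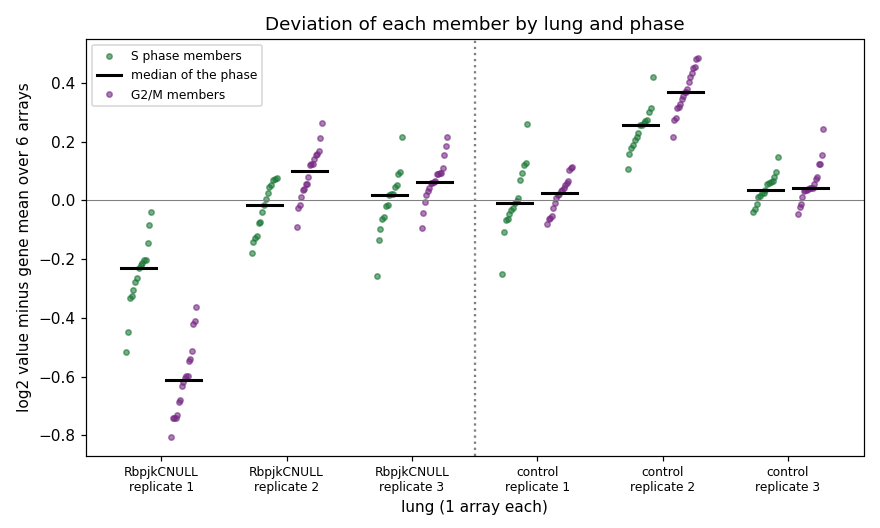
Each point is a member in a lung, as its log2 value minus its mean over 6 arrays (vertical axis), with S phase in green, G2/M in purple, and black bars at the median of the phase. RbpjkCNULL lungs are left of the dotted line and control lungs right of it. The medians of RbpjkCNULL replicate 1 are -0.23 and -0.61, and those of control replicate 2 are 0.26 and 0.37.

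Without RbpjkCNULL replicate 1, most of the G2/M difference and part of the S phase difference were gone. With the remaining 2 RbpjkCNULL lungs against 3 control lungs, the median change was -0.12 over S phase members (range -0.24 to 0.07) and -0.07 over G2/M members (range -0.23 to 0.05), against -0.06 over all genes. The S phase median minus the G2/M median was 0.11 with all arrays and -0.05 without that lung, so which phase had the larger decrease turned on 1 array. Changes below 0 were left for 14 of 15 S phase members and 15 of 18 G2/M members, against 65.8% of all genes. The exceptions were Tyms of S phase and Bub1, Cdk1 and Aurka of G2/M. By limma, 0 of 33 members were lower at an adjusted p under 0.05 in this fit, against 0.108% of all genes, and 1 of 33 at an unadjusted p under 0.05, against 7.57% of all genes. RbpjkCNULL replicates 2 and 3 were both below every control lung for 6 of 33 members, against 21.5% of all genes. The median standard error was 0.110 in S phase and 0.124 in G2/M without that lung, against 0.105 and 0.197 with it.

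**Figure D3:**
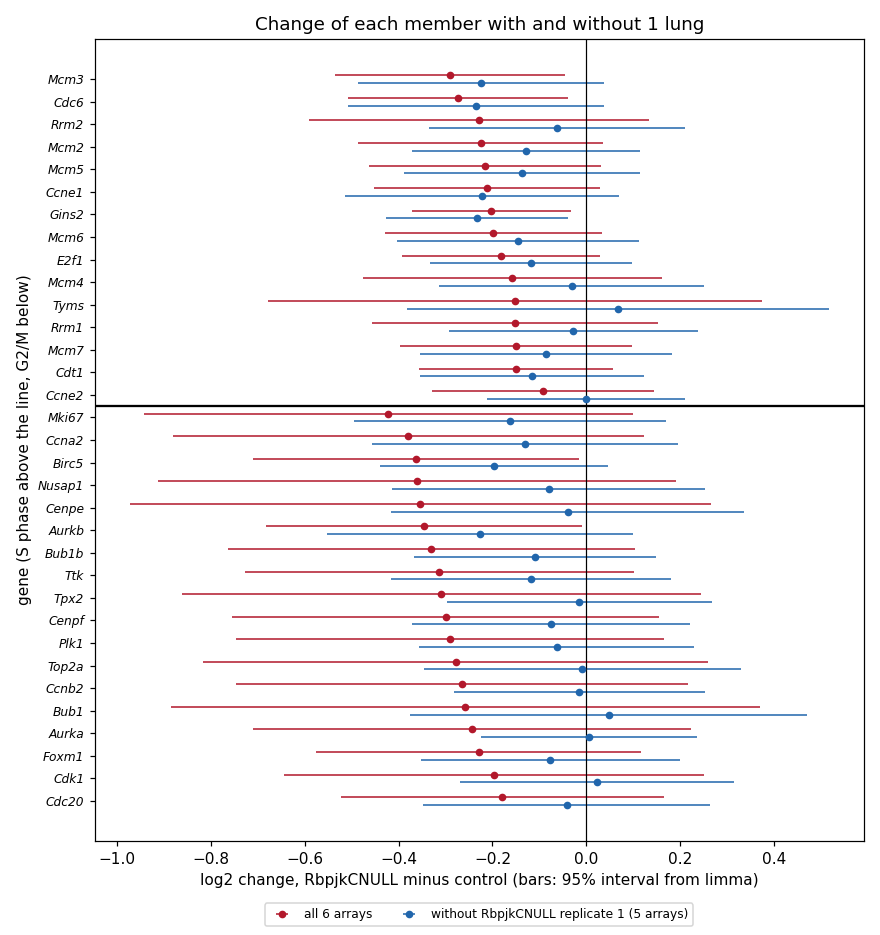
The horizontal axis is the log2 change, RbpjkCNULL minus control, of each member, with bars for the 95% interval from limma, in red for all 6 arrays and in blue for the 5 arrays without RbpjkCNULL replicate 1. The G2/M medians are -0.30 in red and -0.07 in blue, and the S phase medians -0.20 and -0.12.

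The arrays also differed in the lower quartile of their log2 values, in a way that crosses the genotypes. It was 5.03 on RbpjkCNULL replicate 1 and 5.11 and 5.08 on control replicates 1 and 3, and 4.87 and 4.88 on RbpjkCNULL replicates 2 and 3 and 4.89 on control replicate 2. The lung lowest in cell cycle genes and the lung highest in them thus lie in different sets, and each is the only lung of its genotype in its set. Among arrays of the higher lower quartile, RbpjkCNULL replicate 1 minus the mean of control replicates 1 and 3 had a median of -0.29 over S phase members (range -0.47 to -0.11) and -0.67 over G2/M members (range -0.84 to -0.36). Among arrays of the lower one, the mean of RbpjkCNULL replicates 2 and 3 minus control replicate 2 had a median of -0.27 over S phase members (range -0.39 to -0.06) and -0.29 over G2/M members (range -0.49 to -0.09). All 33 members were lower in RbpjkCNULL within both sets, against 40.0% of all genes. RbpjkCNULL replicate 1 was already the lowest lung for 31 of 33 members, and control replicate 2 the highest for 32 of 33. Where a lung is at that end, the difference within its set must be below 0, so this count largely restates which lungs stood apart. Each value within a set rests on a single lung on one side, so it cannot be told apart from what is particular to that lung.

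**Figure D4:**
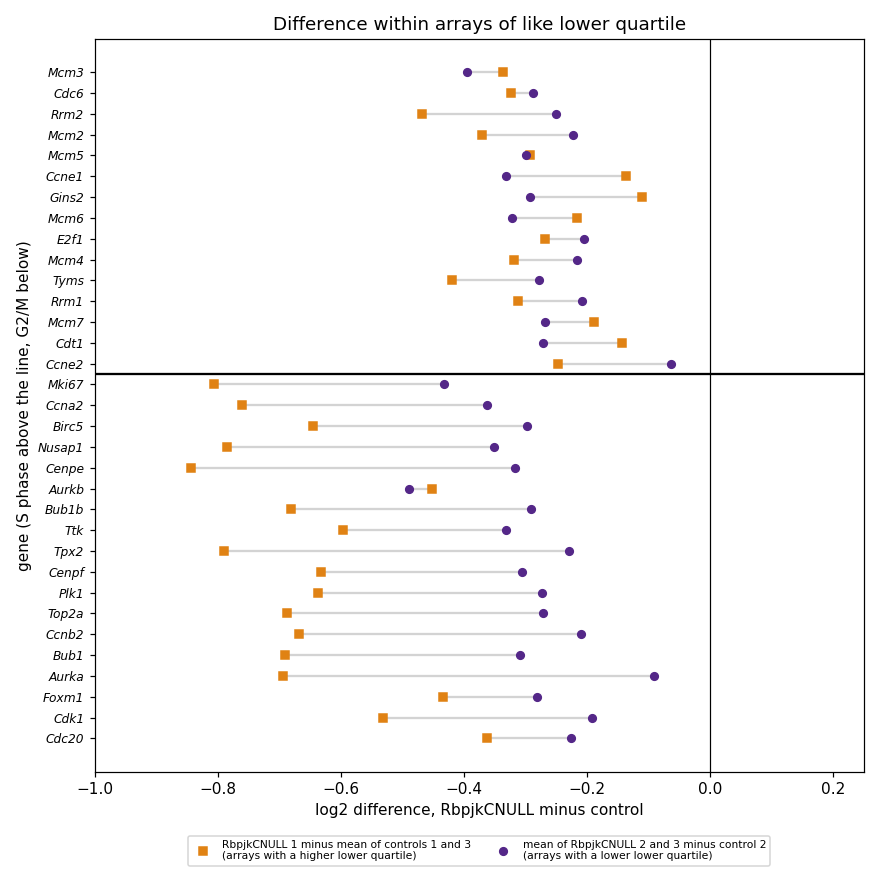
The horizontal axis is the log2 difference, RbpjkCNULL minus control, of each member within arrays of like lower quartile. Orange squares set RbpjkCNULL replicate 1 against control replicates 1 and 3, and purple circles set RbpjkCNULL replicates 2 and 3 against control replicate 2. All 33 members lie left of 0 in both, with G2/M medians of -0.67 and -0.29. RbpjkCNULL replicate 1 and control replicate 2 are each the only lung of their genotype in their set.

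When the lower quartile entered limma as a covariate, the median change of each phase was farther from 0 and the median standard error lower (0.0841 in S phase and 0.133 in G2/M, against 0.105 and 0.197 without it), although the standard errors of Cdc6, Ccne1 and Gins2 were larger. The median change was then -0.32 over S phase members and -0.56 over G2/M members, against -0.02 over all genes, with 33 of 33 below 0 where 58.0% of all genes were. At an unadjusted p under 0.05, 32 of 33 members were lower, 14 of S phase and 18 of G2/M, against 5.9% of all genes. At an adjusted p under 0.05, 2 of 33 were lower, against 0.292% of all genes. These were Aurkb (-0.56, standard error 0.0757, limma adjusted p = 0.0122) and Mki67 (-0.73, standard error 0.134, limma adjusted p = 0.0444). The covariate ties the estimate to the comparisons within the sets described above, and with RbpjkCNULL replicate 1 left out as well, 0 members were called, 18 of 33 had an unadjusted p under 0.05, against 7.04% of all genes, and the medians were -0.28 in S phase and -0.32 in G2/M. Whether the covariate removes an array effect or carries a difference between single lungs was not tested.

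The sex of the embryos differed between the groups. Xist, which is transcribed in female cells, had log2 values of 4.28, 4.13 and 4.21 in RbpjkCNULL lungs against 10.5, 10.7 and 4.91 in control lungs, and each of the 4 lungs with little Xist had high levels of the Y-linked genes Uty, Eif2s3y and Kdm5d. Control replicate 2, the lung highest in cell cycle genes, was 1 of the 2 with high Xist, and control replicate 1, the other, had median deviations near 0 in both phases. With the Xist level as a covariate in limma, the median change was -0.13 over S phase members and -0.18 over G2/M members, 0 of 33 members had an unadjusted p under 0.05, against 6.68% of all genes, and 0 of all genes were called. That fit rests largely on control replicate 3, the only control lung with little Xist. The standard error of Mki67 was 0.365 in it, against 0.223 without the covariate. Whether sex has a part in the changes was not tested.

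Genes of the same processes outside the members moved with the same lungs. Of 47 other replication genes 45 were measured, with a median change of -0.16, 0 called and 8 lower at an unadjusted p under 0.05 by limma, and a median of -0.10 without RbpjkCNULL replicate 1. Over all 21225 genes, limma had 4.97% lower and 755 genes higher at an unadjusted p under 0.05. Tk1, thymidine kinase, had the lowest change (-0.45, limma adjusted p = 0.442, and -0.29 without RbpjkCNULL replicate 1), with values of 5.76, 6.08 and 6.42 in RbpjkCNULL lungs against 6.47, 6.62 and 6.52 in control lungs that did not overlap. Pole, the catalytic subunit of the leading-strand polymerase, followed with -0.44, and Rfc2 of the clamp loader and Pold3 of polymerase delta had the highest changes, 0.11 and 0.08. Of 59 other mitotic genes 57 were measured, with a median change of -0.27, 0 called by limma (unadjusted p under 0.05 for 3 lower and 1 higher), and a median of -0.05 without RbpjkCNULL replicate 1. Cdc25c, the phosphatase that activates Cdk1, had the lowest (-0.52, and -0.23 without RbpjkCNULL replicate 1), with 4.86, 5.66 and 5.76 in RbpjkCNULL lungs against 5.83, 6.22 and 5.79 in control lungs. These lungs did not overlap, though RbpjkCNULL replicate 3 came close to control replicate 3. Hmmr, a spindle protein, had a change of -0.43, and -0.09 without RbpjkCNULL replicate 1. Nek2, a centrosomal kinase, had the highest change, 0.40 (limma adjusted p = 0.491), and Pttg1, securin, had 0.06. With the lower quartile as a covariate, limma called 3 of the other replication genes lower (Pole, Prim1 and Asf1b) and 8 of the other mitotic genes lower, with Hmmr at -0.95 and Cenpi at -0.68 among them. Of all genes, 0.292% were lower at an adjusted p under 0.05 in that fit. As for the members, the comparisons within the sets rest on a single lung on one side.

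Genes that hold or release the cell cycle in G1 were taken as further lists. The 15 G1 cyclins, kinases and E2F activators had a median change of -0.12, with 0 called by limma and 2 lower at an unadjusted p under 0.05, and a median of -0.06 without RbpjkCNULL replicate 1. E2f2, an activator of replication genes, had the lowest change (-0.31, limma adjusted p = 0.380) and Ccnd2, cyclin D2, the next (-0.26, limma adjusted p = 0.220). Ccnd2 had 9.44, 9.43 and 9.47 in RbpjkCNULL lungs against 9.74, 9.75 and 9.64 in control lungs, without overlap and with RbpjkCNULL replicate 1 level with its group. Tfdp2, a partner of E2F proteins, had 0.07 and Cdk6 -0.03. Of 27 cell cycle inhibitors and quiescence genes 24 were measured, with a median of -0.02, 0 called by limma and 2 lower at an unadjusted p under 0.05. Beside both lists, 4.97% of all genes were lower at that unadjusted p. At their ends stood E2f8 (-0.34) and E2f7 (-0.29), repressors that are themselves made in S phase, and Rb1 (0.24) and Tob1 (0.12), which restrain division.

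Relatives of cell cycle genes that multiciliated cells use were lower in RbpjkCNULL replicate 1 than in the other RbpjkCNULL lungs. The median of that lung minus the mean of the others was -0.35. Their median deviation was -0.21, 0.02 and 0.35 in RbpjkCNULL replicates 1, 2 and 3, against -0.12, -0.03 and -0.07 in control replicates 1, 2 and 3. Over 9 such genes the median change, RbpjkCNULL minus control, was 0.05 with all arrays and 0.23 without RbpjkCNULL replicate 1, with 0 called by limma over all arrays. At an unadjusted p under 0.05 limma had 3 of them higher and 1 lower, against 755 higher and 1055 lower of all 21225 genes. Ccna1, cyclin A1, had 7.36, 7.92 and 8.10 in RbpjkCNULL lungs against 6.98, 7.17 and 7.18 in control lungs, all RbpjkCNULL lungs being higher, with RbpjkCNULL replicate 1 nearest to the control lungs. Its change was 0.68 (limma adjusted p = 0.235), and without RbpjkCNULL replicate 1 it rose by 0.90 (standard error 0.102, limma adjusted p = 0.0131). Myb, a transcription factor of early multiciliated cells, had 7.21, 7.25 and 7.46 in RbpjkCNULL lungs against 6.91, 6.93 and 6.91 in control lungs, without overlap (change 0.39, limma adjusted p = 0.109). Gmnc and Mcidas, coregulators that start the multiciliated program, had changes of -0.33 and -0.20. Cdc20b, a relative of Cdc20 chosen here after its values were seen, ranged from 6.10 in RbpjkCNULL replicate 1 to 7.47 in RbpjkCNULL replicate 3, with the control lungs in between.

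**Figure D5:**
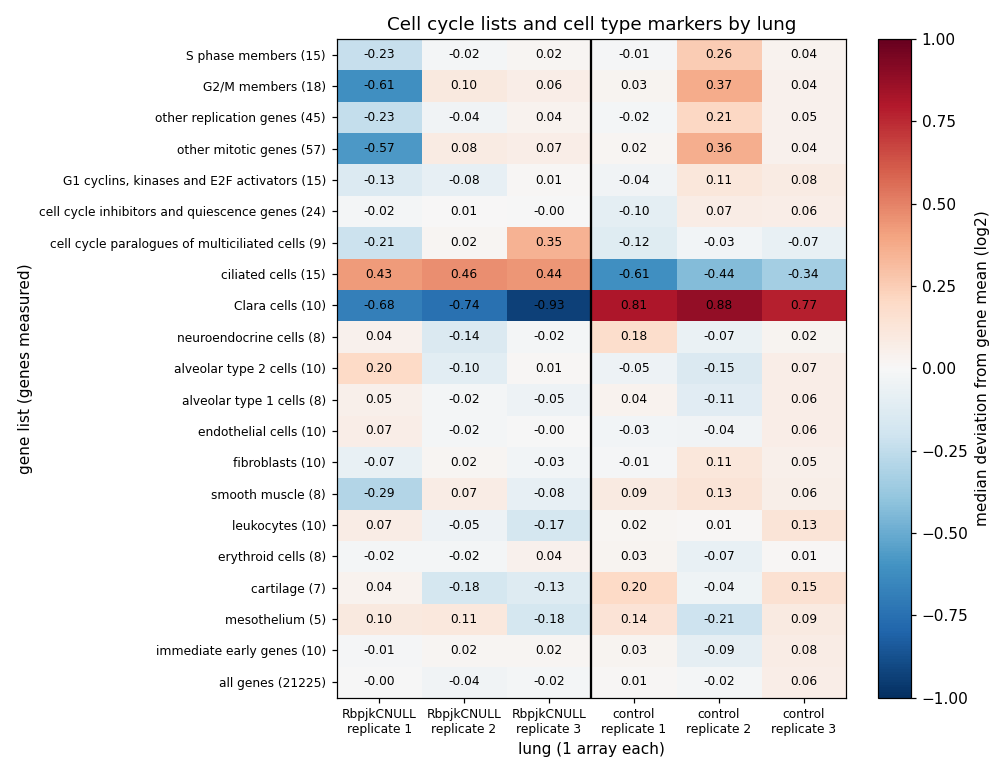
Rows are gene lists with the number of genes measured, columns are lungs, RbpjkCNULL left of control, and numbers and colour are the median over the list of the log2 value minus the gene mean. The G2/M members have -0.61 in RbpjkCNULL replicate 1 and 0.37 in control replicate 2, whereas ciliated cell and CC markers separate the groups in every lung. All CC markers but Scgb3a1 were selected by the paper for their fall on these arrays.

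Markers of the cells in a lung show what else moved. Alveolar type 2 markers, which define lung among tissues, had mean log2 levels of 10.5 to 10.8 in RbpjkCNULL lungs and 10.4 to 10.7 in control lungs. Rbpj had 6.26, 6.17 and 6.18 in RbpjkCNULL lungs against 6.45, 6.50 and 6.74 in control lungs (change -0.36, limma adjusted p = 0.210), in a value summarised over the whole gene and not over the floxed part alone. Ciliated cell markers rose in 15 of 15 genes (median 0.97) and CC markers fell in 10 of 10 (median -1.54) by limma at an adjusted p under 0.05. Over all 21225 genes, 246 were higher and 24 lower at that threshold. Both lists were chosen with earlier results of these data known. All CC markers but Scgb3a1 are genes that the paper selected for their fall on these same arrays, so that fall is not a separate result. In neither list was RbpjkCNULL replicate 1 set apart, with median deviations of 0.43, 0.46 and 0.44 for ciliated cells and -0.68, -0.74 and -0.93 for CCs in RbpjkCNULL replicates 1, 2 and 3. Smooth muscle markers moved with RbpjkCNULL replicate 1, with a median deviation of -0.29 there, 0.07 and -0.08 in the other RbpjkCNULL lungs, and 0.09, 0.13 and 0.06 in control lungs. All 8 smooth muscle markers had changes below 0 (median -0.18, 0 called and 2 lower at an unadjusted p under 0.05 by limma), and their mean log2 level ranged from 7.03 to 7.40 in RbpjkCNULL lungs and from 7.41 to 7.5 in control lungs. Of all genes, 68.1% had changes below 0 and 4.97% were lower at an unadjusted p under 0.05. Alveolar type 2 markers ran the other way in that lung, with 0.20 in RbpjkCNULL replicate 1, -0.10 and 0.01 in the other RbpjkCNULL lungs, and -0.05, -0.15 and 0.07 in control lungs. Lists of neuroendocrine, alveolar type 1, endothelial, fibroblast, leukocyte, erythroid, cartilage and mesothelial markers and of immediate early genes had median changes between -0.19 and 0.03, with 0 called by limma and 1 gene, of cartilage, at an unadjusted p under 0.05. Whether any of these lists has a part in the level of the cell cycle genes was not tested.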

How the data were processed

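Total RNA of whole lungs was amplified, labelled and hybridized by the authors. The deposited values are log2 expression values, 1 per Entrez Gene, which the authors obtained with RMA under R 2.12.0 by correcting background, aligning the arrays by quantiles and summarising probes by median polish. They were used unchanged, and they ranged from 1.50 to 12.9. Of 21225 genes, 986 had no symbol in the platform table and stayed unnamed. Groups were compared by limma 3.58.1 in R 4.3.3 (lmFit, eBayes without trend, 3.48 prior degrees of freedom), two-sided, with Benjamini-Hochberg adjustment over all genes and a threshold of 0.05. No filter on low values was set, and 31 of the 33 measured members lay at or above the median of gene means.

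The members and lists were chosen with earlier results of these data known. Values in every lung are given for the 3 lowest and 2 highest changes of each phase, for Mki67, Top2a, E2f1 and Foxm1, and for some of the 2 highest and 2 lowest genes of other cell cycle lists. Gins2, Aurkb and Cenpe were added after their values were seen. Results were recomputed with the t-test of the methods, with an intensity trend, with robust eBayes, with array weights, after centring on medians, after quantile or cyclic loess scaling, with low genes removed (below the 25th percentile or below the median of gene means), with a replicate block, without each array in turn, without both arrays numbered 1, and with the lower quartile or Xist as a covariate. The lower quartile together with leaving out RbpjkCNULL replicate 1 was chosen after seeing the data. Promoter windows are from RefSeq (GRCm38.p6). The main limma fit and the t-test of the methods were tested on simulated data with known changes. The simulated noise was independent between genes and arrays, so shifts shared over the genes of a lung were not covered.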

Additional observations from a re-analysis of the deposited data

How the results depend on the processing

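The count of called members was 0 by limma and under every alternative except the lower quartile covariate, with 2. These are counts of 33 members, or of 31 where genes below the median of gene means were removed. The median changes of both phases kept their sign under every alternative. Leaving out single arrays, the S phase median ranged from -0.23 to -0.12 and the G2/M median from -0.43 to -0.07, the value nearest 0 being that without RbpjkCNULL replicate 1. The S phase median minus the G2/M median ranged from -0.05, without RbpjkCNULL replicate 1, to 0.24, with the lower quartile covariate, and was 0.00 with array weights, which gave RbpjkCNULL replicate 1 the lowest weight of all arrays (0.518), and 0.00 without both arrays numbered 1. Without control replicate 2 the medians were -0.13 in S phase and -0.20 in G2/M. With array weights the G2/M median was -0.13. Over single arrays left out, the change of Cdk1 ranged from -0.32 to 0.0236, which was its value without RbpjkCNULL replicate 1, the only one above 0. Among all genes 270 passed by limma, 246 higher and 24 lower. The methods' t-test called 8, leaving out both arrays numbered 1 gave 179, leaving out single arrays 139 to 236, the Xist covariate 0, and the lower quartile covariate without RbpjkCNULL replicate 1 gave 84. Fewer arrays were fitted where arrays were left out, and for the other counts the cause was not tested.

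Replicate numbers are in the labels of both groups, but whether they pair the lungs is not settled by the labels or by these values. Deviations of same-numbered lungs from their group means correlated at 0.49, 0.31 and -0.09 across genes, which are not independent, and control replicate 2 correlated best with RbpjkCNULL replicate 3 (0.41). With the replicate number as a block, limma called 304 genes and 0 members, and the median changes stayed at -0.20 in S phase and -0.30 in G2/M. In that fit 14 of 33 members and 2839 of 21225 genes had an unadjusted p under 0.05, against 5 members and 1810 genes without the block.

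With 3 lungs a group, the median standard error was 0.197 for G2/M members beside their median change of -0.30, and 0.105 for S phase members beside -0.20.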

Other observations

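Genes were also ranked by how far RbpjkCNULL replicate 1 lay below the mean of the other RbpjkCNULL lungs, a ranking made after that lung had been seen to stand apart. Among the 100 lowest of 20239 named genes were 9 of the 18 G2/M members and 20 of the 57 other mitotic genes, with Cenpe (-0.94) and Bub1 (-0.92) the lowest members, and 0 of the 15 S phase members and 1 of the 45 other replication genes. Cdc20b (-1.04) and Hmmr (-1.02) stood near the top of that ranking, behind genes outside the cell cycle lists such as Chia1 (-1.65) and Crh (-1.57). Among the 100 genes by which control replicate 2 most exceeded the other control lungs were 1 G2/M member, 4 other mitotic genes, 1 S phase member and 2 other replication genes. No test was run on these rankings.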
